A study of Drosophila melanogaster with 28 samples.

Results

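Ribosome footprints were compared between Mettl1 knockout and wild-type (WT) testes of Drosophila melanogaster in 8 of the 28 libraries of the series, 4 per genotype. These are all testis footprint libraries, chosen by assay and tissue alone. A footprint is the stretch of mRNA that a ribosome shields from nuclease, so its count follows how much of an mRNA is present and how densely ribosomes occupy it. The libraries form set 1 and set 2, each with 2 WT and 2 knockout replicates. Per the labels, WT males were y1 w1118 and knockout males were Mettl1-KO, described in the protocol as Mettl1KO1. Testes came from adults aged 2 to 3 days, were dissected with cycloheximide at 100 µg/ml, and were pooled at 600 pairs per sample. For reference, 2 WT body footprint libraries and the 4 RNA-seq libraries of set 1 testis, 2 per genotype, were set beside them. Whether the body samples still held testes was not given in the sources used here. Cycloheximide halts elongating ribosomes, and it was present for both genotypes of testis. Digits that follow the genotype in the titles were taken as replicate numbers, although they could stand for knockout lines, and which line set 2 holds was unclear. For the set 2 knockouts the deposited files and the titles differ in these digits, so the knockout replicates of that set may be of one line or of different lines. Nothing states that the pools came from separate crosses, so the p-values measure the spread between these samples, which may be technical.

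Mettl1 is the catalytic subunit of a tRNA methyltransferase, which in the fly pairs with Wuho. It places N7-methylguanosine (m7G) in the variable loop of a subset of tRNAs, a mark known to stabilise some of them and to support decoding of their codons. Male germ cells transcribe many mRNAs as spermatocytes, store them, and translate them later in spermatids, when transcription has largely ceased. The title of the series ties this modification to male fertility, and the comparison of genotypes asks which transcripts carry more or fewer ribosomes without Mettl1.

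Counts were deposited per FlyBase transcript, and transcripts with near-identical counts were joined into 14874 loci. Footprints over these loci totalled 315992 to 2617183 per library in set 1 and 5136088 to 10062778 in set 2, so set 2 gives the more precise values, with a median SE of a log2 change of 0.17 against 0.29 in set 1. Across 11765 loci, which are not independent replicates, replicates of one genotype in set 1 had correlations of log2(CPM + 1) of 0.943 (WT) and 0.883 (knockout), against 0.831 to 0.876 between genotypes. CPM is the count scaled to library size, computed here with TMM factors. In set 2 the replicates had 0.987 (WT) and 0.979 (knockout), against 0.919 to 0.950 between genotypes. Within each set, replicates were thus closer to each other than to the other genotype. Neither the targeted transcript nor defining testis markers were checked, because the identifiers used here were not paired with gene names except for the 43 transcripts described below.

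Footprint loss was more frequent than footprint gain in the knockout testes. With both sets in one fit and set as a term, edgeR called 2257 of 11765 loci (19.2%) at an adjusted p under 0.05. Of these, 912 were higher in the knockouts (7.75% of loci tested) and 1345 were lower (11.4%). Among the lower loci 689 changed at least 2-fold and 192 at least 4-fold, against 286 and 59 of the higher loci. The median log2 change over all loci was 0.04. TMM scaling centres the changes in advance, so this median cannot show whether footprints rose or fell as a whole. All changes given here are relative to the other loci of a library. The count of calls was 1407 without set 2 WT replicate 1 and 1478 without set 2 knockout replicate 1. In bulk testis, fewer cells of one type and less RNA or ribosome occupancy per cell cannot be told apart.

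The loci with the most footprints among the clearest changes are given by FlyBase transcript identifier. Each was called in the joint fit and in both sets, changed at least 2-fold, and had knockouts beyond WT in each set. A mean of at least 5 log2 CPM and 10 counts in every library were also required. Of 11765 loci tested, 82 higher and 284 lower met these conditions. Over all 11765, called or not, knockouts lay above WT in each set at 1584 loci and below at 1726. FBtr0083828 fell. Its footprint levels in set 1 were 5694 and 5525 CPM in WT and 761 and 910 CPM in the knockouts. In set 2 they were 4260 and 4522 CPM in WT and 1080 and 704 CPM in the knockouts. The groups were far apart in both sets, and the log2 change was -2.51 (SE 0.17, edgeR adjusted p = 1.48e-05). In set 1 RNA-seq of the same tissue its transcript level was 9326 and 9619 CPM in WT and 11884 and 10504 CPM in the knockouts, a log2 difference of 0.24 that did not pass (edgeR adjusted p = 0.0573). Footprints relative to RNA, called translational efficiency here and tested in one model over both assays, fell by 3.05 on the log2 scale (edgeR adjusted p = 0.000112). A locus listed beside it held nearly the same counts, so reads may be shared between them.

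FBtr0076638 also fell. Set 1 gave 5628 and 5274 CPM in WT against 1277 and 1447 CPM in the knockouts. Set 2 gave 4122 and 4329 CPM in WT against 1884 and 1650 CPM in the knockouts. The joint log2 change was -1.62 (SE 0.16, edgeR adjusted p = 0.00014), with -2.01 in set 1 and -1.28 in set 2. The set difference had an unadjusted p of 0.00248 and an edgeR adjusted p of 0.107, so it did not pass. Transcript level went the other way, from 4251 and 4359 CPM in WT to 6436 and 5646 CPM in the knockouts (log2 change 0.49, edgeR adjusted p = 0.00859). Fewer footprints were thus counted on a transcript that was more abundant, and translational efficiency fell by 2.55 on the log2 scale (edgeR adjusted p = 0.00013).

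FBtr0076485 rose from 1082 and 919 CPM in WT to 2270 and 2791 CPM in the knockouts of set 1. In set 2 it rose from 1095 and 1053 CPM to 2739 and 3040 CPM. The sets were close to each other, with a joint log2 change of 1.39 (SE 0.11, edgeR adjusted p = 2.92e-05). Its transcript rose less, by 0.47 on the log2 scale (edgeR adjusted p = 0.00315), and translational efficiency rose by 0.81 (edgeR adjusted p = 0.0264). This locus was one of 38 whose efficiency rose among 12068 tested (0.315%), against 533 whose efficiency fell (4.42%).

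FBtr0073545 rose from 2100 and 1722 CPM to 4410 and 6431 CPM in set 1. In set 2 it rose from 703 and 449 CPM to 1794 and 2159 CPM. WT levels of set 1 were as high as knockout levels of set 2, while within each set the genotypes did not overlap, as the rule required. The joint log2 change was 1.65 (SE 0.18, edgeR adjusted p = 0.000249), and without the set term the same change had an adjusted p of 0.116. Its transcript rose by 1.32 on the log2 scale (edgeR adjusted p = 0.000863), and the difference in efficiency, 0.13, did not pass (edgeR adjusted p = 0.885). All 4 loci remained called when any 1 of the 8 libraries was left out. They were chosen for a call in the joint fit and in each set, so this outcome was largely fixed in advance.

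**Figure D1:**
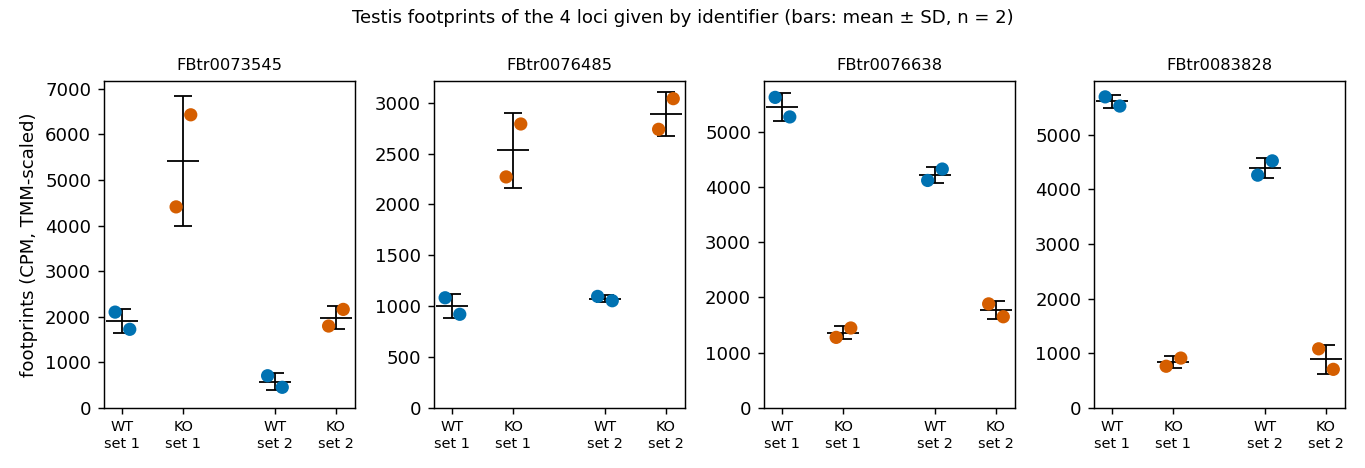
Footprint level (CPM, TMM-scaled, linear axis) of FBtr0073545, FBtr0076485, FBtr0076638 and FBtr0083828 in WT (blue) and knockout (orange) testes; points are libraries and bars are mean ± SD, n = 2 per group. In each set both knockout points lie outside the WT points, as the choice of loci required, above them for the 2 loci at left and below them for the 2 at right.

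Gene names could be attached to 43 transcripts whose identifier stands in a synonym of the reference gene table. They were taken for that match and not for how they moved. Of the 40 tested, 8 were called (20.0%), near the 19.2% of all loci. The 10 exact matches are all described here, and 8 further transcripts annotated to 2 genes were chosen after their values were seen. Which of the 2 reading frames was counted on such a transcript was not given. Over the 32 that did not pass, log2 differences ran from -0.82 to 1.09.

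Subunits of GATOR2, a complex that relieves inhibition of the nutrient-sensing kinase TORC1, were 3 of the named genes. Wdr59 rose. Its footprint levels were 13.4 and 21.7 CPM in WT and 40.8 and 39.0 CPM in the knockouts of set 1, and 15.6 and 17.9 CPM against 29.5 and 25.1 CPM in set 2. Knockouts lay above WT in both sets, with a log2 change of 0.93 (SE 0.20, edgeR adjusted p = 0.0107). Its transcript rose by 1.39 on the log2 scale (edgeR adjusted p = 0.00124), and efficiency differed by -0.09 (edgeR adjusted p = 1.0). Without set 2 WT replicate 1 or set 2 knockout replicate 1, the adjusted p was 0.057 and 0.0604.

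The other GATOR2 subunits did not pass. For mio, set 1 held 13.8 and 18.3 CPM in WT and 8.74 and 13.4 CPM in the knockouts, and set 2 held 19.9 and 22.4 CPM against 24.2 and 19.7 CPM. Its genotypes overlapped in set 2, and the log2 difference was -0.06 (SE 0.20, edgeR adjusted p = 0.906). Wdr24 was sparse, at 2.23 to 9.99 CPM over the 8 libraries, with a log2 difference of 0.07 (SE 0.40, edgeR adjusted p = 0.955). Its sign turned to -0.07 without the set term. Whether Wdr59 differed from its partners was not tested.

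alpha-Spec encodes alpha-spectrin, a membrane skeleton protein that in the fly germline also belongs to the fusome, the organelle linking sister germ cells. Its levels were 417 and 385 CPM in WT and 542 and 588 CPM in the knockouts of set 1. In set 2 they were 392 and 352 CPM in WT and 446 and 494 CPM in the knockouts. It rose modestly and without overlap in either set (log2 change 0.42, SE 0.09, edgeR adjusted p = 0.0122), while its transcript differed by 0.08 (edgeR adjusted p = 0.526). Efficiency differed by 0.36, which did not pass (edgeR adjusted p = 0.341). Fitted alone, neither set 1 nor set 2 passed (edgeR adjusted p = 0.0966 and 0.0794), so the call stands on the joint fit. The call was lost without set 1 WT replicate 1, set 1 knockout replicate 2, set 2 WT replicate 2 or set 2 knockout replicate 2, with adjusted p-values up to 0.0779.

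sle, slender lobes, encodes a nucleolar protein known from the fly brain. It fell. Its levels were 673 and 503 CPM in WT and 373 and 512 CPM in the knockouts of set 1, and 527 and 438 CPM against 308 and 341 CPM in set 2. The groups overlapped in set 1 and not in set 2 (log2 change -0.48, SE 0.14, edgeR adjusted p = 0.0355). Its transcript fell by 0.58 on the log2 scale (edgeR adjusted p = 0.00252). The call was lost without replicate 1 of either genotype in either set, with adjusted p-values up to 0.128.

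CG42306/Gint3, a transcript annotated to both genes, fell from 173 and 128 CPM to 111 and 97.0 CPM in set 1 and from 170 and 153 CPM to 108 and 98.7 CPM in set 2. The 4 knockout libraries were close together and below every WT library. The log2 change was -0.60 (SE 0.11, edgeR adjusted p = 0.00547), and it was the one among the 8 called names that stayed called whichever library was left out. Its transcript fell by 0.37 on the log2 scale (edgeR adjusted p = 0.00826).

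CG42374/Mettl5 is annotated to both CG42374 and Mettl5, which methylates adenosine in small-subunit rRNA. Its footprints were 8.20 and 6.66 CPM in WT and 5.83 and 4.46 CPM in the knockouts of set 1, and 15.4 and 21.6 CPM against 10.4 and 8.53 CPM in set 2. Knockouts were below WT in both sets, but set 1 held only 19 and 4 counts in WT and 2 and 4 in the knockouts. The locus had too few counts to be tested in set 1 alone. It fell by 0.88 on the log2 scale (SE 0.22, edgeR adjusted p = 0.0241), while its transcript rose by 0.57 (edgeR adjusted p = 0.0113). The fall was not called without set 2 WT replicate 2 or either knockout of set 2, with adjusted p-values up to 0.126. Efficiency differed by -1.27, which did not pass (edgeR adjusted p = 0.265).

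The remaining called names rose. CG42375/CG9288 was at 12.5 and 9.99 CPM in WT and 17.5 and 27.9 CPM in the knockouts of set 1, and at 17.0 and 19.2 CPM against 33.0 and 26.3 CPM in set 2 (log2 change 0.84, SE 0.19, edgeR adjusted p = 0.0122). It was lost without replicate 1 of either genotype in set 2, with adjusted p-values up to 0.0872. CG31917/Tfb5, annotated in part to a subunit of the transcription and repair factor TFIIH, had 6.91 and 8.33 CPM in WT and 2.91 and 15.6 CPM in the knockouts of set 1, and 8.50 and 9.99 CPM against 23.7 and 19.6 CPM in set 2. Set 1 knockouts, with 1 and 14 counts, fell on either side of WT, and this transcript was not tested in set 1 alone. Its change of 1.07 (SE 0.29, edgeR adjusted p = 0.0309) thus rested on set 2. It was lost without set 1 WT replicate 1 or any library of set 2, with adjusted p-values up to 0.193. CG42497/Tim10, annotated in part to a chaperone of mitochondrial protein import, had 51.4 and 35.0 CPM against 75.8 and 61.4 CPM in set 1 and 64.3 and 71.5 CPM against 84.2 and 89.3 CPM in set 2. Its knockouts lay above WT in both sets (log2 change 0.45, SE 0.14, edgeR adjusted p = 0.0455), yet it was lost without any single library, with adjusted p-values of 0.064 to 0.146.

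The other exact matches were not called. His4r, which encodes histone H4 from a gene outside the histone cluster, was steady, at 353 and 360 CPM in WT and 370 and 405 CPM in the knockouts of set 1, with a joint log2 difference of 0.04 (SE 0.11, edgeR adjusted p = 0.876). Uba1, the enzyme that activates ubiquitin, was at 490 and 475 CPM in WT and 592 and 581 CPM in the knockouts of set 1, and at 510 and 503 CPM against 576 and 562 CPM in set 2. Its knockouts were above WT in each set, but the log2 difference of 0.23 (SE 0.08) had an edgeR adjusted p of 0.0939, against 0.00453 by DESeq2. LanA, a laminin chain of basement membranes, differed by 0.31 (SE 0.16, edgeR adjusted p = 0.224). kis, a chromatin remodeller, differed by 0.25 (SE 0.19, edgeR adjusted p = 0.442), and Dyrk3, a protein kinase, by 0.07 (SE 0.24, edgeR adjusted p = 0.953). The sign of Dyrk3 turned to -0.12 without the set term.

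For kis the sets pointed apart. Set 1 had 74.3 and 65.0 CPM in WT and 111 and 128 CPM in the knockouts, while set 2 had 89.5 and 103 CPM against 90.3 and 80.1 CPM. The set difference had an unadjusted p of 0.00211 and an edgeR adjusted p of 0.101. CG45087/Pepck1, annotated in part to the gluconeogenic enzyme, went from 47.9 and 35.0 CPM to 32.1 and 30.1 CPM in set 1 and from 36.8 and 29.8 CPM to 61.2 and 65.1 CPM in set 2 (set difference unadjusted p = 0.000906, edgeR adjusted p = 0.0899). In WT body its footprints were at 1166 and 1414 CPM, far above testis.

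BicC/CG45084, annotated in part to the RNA-binding protein Bicaudal C, differed by -0.15 in footprints (SE 0.16, edgeR adjusted p = 0.613). Its transcript rose from 169 and 187 CPM to 359 and 317 CPM (log2 change 0.93, edgeR adjusted p = 0.00255), and efficiency fell by 1.10 (edgeR adjusted p = 0.0288). CG45089/ND-MNLL, annotated in part to a subunit of respiratory complex I, differed by -0.78 in footprints (SE 0.25, edgeR adjusted p = 0.0584). In set 1 it had 8.74 and 7.81 CPM in the knockouts against 19.0 and 13.3 CPM in WT. Those levels stand on 3 and 7 counts against 44 and 8, and it was not tested in set 1 alone.

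Each set was also fitted alone, which gives a comparison between libraries that share no sample. Set 1 gave 863 calls among 7811 loci (11.0%), 207 higher (2.65%) and 656 lower (8.40%). Set 2, the deeper set, gave 3069 among 11625 (26.4%), 1287 higher (11.1%) and 1782 lower (15.3%). In simulated data, calls from a single set of 2 against 2 held more unchanged loci than the threshold allows. The simulated spread was that of the joint fit, so this share cannot be carried over to either set alone. These counts may still be less secure than the joint one. Single libraries also moved them. Set 1 had 339 calls without WT replicate 1, 536 without WT replicate 2 and 1630 without knockout replicate 1. Set 2 had 1304 calls without WT replicate 1 and 1177 without WT replicate 2.

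Most losses kept their sign from set to set, called there or not. Of the 656 loci lower in set 1, 567 (86.4%) had a lower value in the deeper set. Of 1488 loci lower in set 2 and tested in set 1, 1340 (90.1%) did. Over all loci the median log2 change, which the scaling centres in advance, was 0.0016 in set 1 and 0.005 in set 2. By fall (under 2-fold, 2-fold to 4-fold, 4-fold or more), set 2 called 93 of 112, 315 of 346 and 120 of 198 set 1 losses. Set 1 called 156 of 896, 248 of 445 and 124 of 147 set 2 losses. All 147 loci that fell at least 4-fold in set 2 and were tested in set 1 were lower there too, with a median log2 change of -2.39 in set 2 and -2.32 in set 1. In the other direction, 128 of 198 loci (64.6%) that fell at least 4-fold in set 1 were lower in set 2. Of 206 loci higher in set 1, 201 (97.6%) were also higher in the deeper set. Of 1019 loci higher in set 2 and tested in set 1, 755 (74.1%) were higher there. The difference between the sets itself gave 0 calls of 11765 by edgeR (0%), where the lowest adjusted p was 0.0505, and 279 by DESeq2. At an unadjusted p under 0.05 there were 1685 loci (14.3%). It gave 463 calls without set 1 knockout replicate 1, 364 without set 2 knockout replicate 1 and 8 without set 2 knockout replicate 2.

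The same loci can be read as a share of all footprints in the set that did not choose them. Loci lower in set 1 took 21.3% and 21.6% of footprints in the WT libraries of set 2 and 10.1% and 9.40% in its knockouts. Loci lower in set 2 took 29.7% and 28.9% in WT and 16.1% and 17.4% in the knockouts of set 1. Knockout and WT shares did not overlap in either set. Loci higher in set 1 took 3.25% in each WT library of set 2 and 6.66% and 6.41% in its knockouts, and loci higher in set 2 took 12% and 11.1% in WT and 16.8% and 17.7% in the knockouts of set 1.

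**Figure D2:**
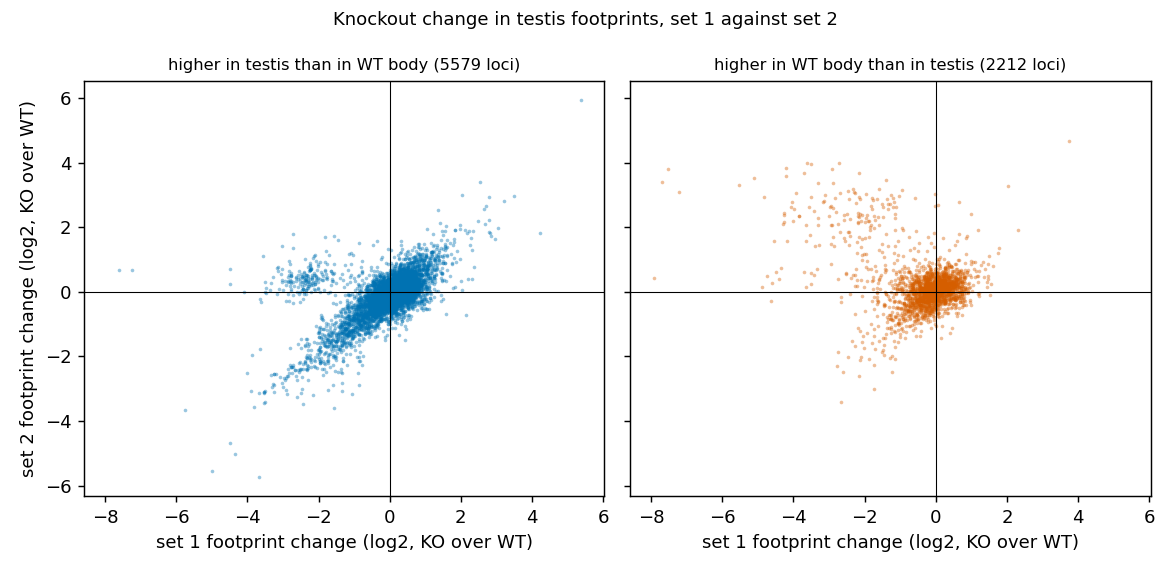
Log2 change of footprints (knockout over WT) in set 1 (x axis) against set 2 (y axis), 1 point per locus tested in both, for loci higher in the mean of the 8 testis libraries (left, 5579 loci) or higher in WT body (right, 2212 loci). Most loci lie near the rising diagonal, and a cloud at upper left of the right panel holds loci that were lower in set 1 and higher in set 2.

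The sets went apart at the strongest gains of set 2 and at the strongest losses of set 1. Of 115 loci at least 4-fold higher in set 2 and tested in set 1, 20 had the same sign there, and the median set 1 log2 change was -2.10. The 95 that were lower in set 1 were all higher in WT body than in testis, with a median of 78.5 CPM in WT body. Their median footprint level was 41.4 and 38.3 CPM in WT and 20.4 and 1.12 CPM in the knockouts of set 1. In set 2 it was 6.38 and 4.48 CPM in WT and 18.3 and 48.5 CPM in the knockouts. Levels thus differed between WT of the sets and between replicates of one genotype. In set 1 RNA-seq their median was 16.6 and 16.3 CPM in WT, 0.252 CPM in knockout replicate 1 and 7.05 CPM in knockout replicate 2, so the replicate that was low differed between assays. Of the losses of at least 4-fold in set 1, 70 were higher in set 2, with median log2 changes of -3.46 and 1.51. Of these, 53 were higher in WT body than in testis and 23 were also among the 95. Their median footprint level was 41.4 and 38.3 CPM in WT and 8.74 and 2.23 CPM in the knockouts of set 1, and 8.25 and 8.56 CPM against 16.9 and 43.1 CPM in set 2. Both groups of loci were chosen for their values in both sets, so no test is given. The part that RNA from outside the testis had in these values was not tested. Without all loci higher in WT body than in testis, the same sign was found in 96.0% of losses and 98.5% of gains of set 1. For set 2 it was 89.6% of losses and 86.6% of gains. The loci left out held all of the 95 and 53 of the 70. Some rise among gains of set 2 and among losses of set 1 was thus fixed in advance. The split also used the mean of the same testis libraries. Among the 7440 loci that remained, the joint fit held 1824 calls, 748 higher (10.1%) and 1076 lower (14.5%). Over all 11765 loci, 7.75% were higher and 11.4% lower. The loci that remained also had more footprints, with a median of 5.14 log2 CPM against 4.63 over all loci.

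**Figure D3:**
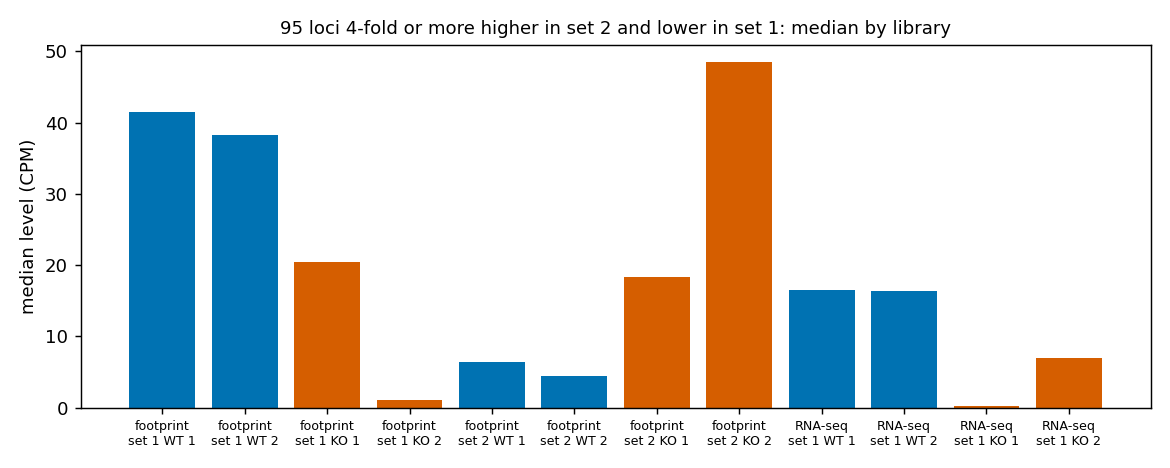
Median level (CPM, linear axis) in each library of the 95 loci that were 4-fold or more higher in set 2 knockouts and lower in set 1 knockouts; bars are libraries, blue WT and orange knockout. Within each set and assay, the knockout bars differ from each other by more than the WT bars do, as in footprints of set 2 at 18.3 and 48.5 CPM.

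By the ratio of WT testis to WT body, losses were most frequent among the most testis-biased loci. To keep the choice of loci apart from the test, WT testis of one set was set against WT body footprints, and the change was read in the other set. Of 2293 loci over 8-fold higher in WT testis, 37.9% were lower and 15.5% higher in the set 2 knockouts. Loci within 2-fold of body were lower in 7.95% and higher in 9.03%. With the sets exchanged, 20.0% of 2051 testis-biased loci were lower and 6.05% higher in set 1, against 2.16% and 0.794% within 2-fold. Testis-biased loci also had more footprints. Among loci tested in set 2, their median level over the libraries of both sets was 6.18 log2 CPM, against 4.42 for loci within 2-fold. The part of level in these shares was not tested. A class by WT body level alone did not show the same excess of losses. Of the 1026 loci under 1 CPM in WT body, whose median level was 3.16 log2 CPM, 12.5% were higher and 12.7% lower in the joint fit. Of the 399 of them tested in set 1, 8.02% were higher and 2.01% lower. Of the 906 tested in set 2, 14.0% were higher and 20.9% lower.

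Body-biased loci differed between the sets. Of the loci over 8-fold higher in WT body, 15.9% were lower and 0.867% higher in set 1, with a median log2 change of -0.88 and of -1.05 in RNA-seq of that set. In set 2, 9.15% were lower and 8.53% higher. As shares of all footprints, testis-biased loci took 43.7% and 44.6% in WT and 38.5% and 36.7% in the knockouts of set 2. In set 1 they took 42.5% and 41.3% in WT and 37.0% and 41.6% in the knockouts, so the genotypes overlapped there. The same loci took 49.2% and 48.8% of set 1 RNA-seq counts in WT and 55.5% and 52.6% in the knockouts, a difference in the other direction.

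**Figure D4:**
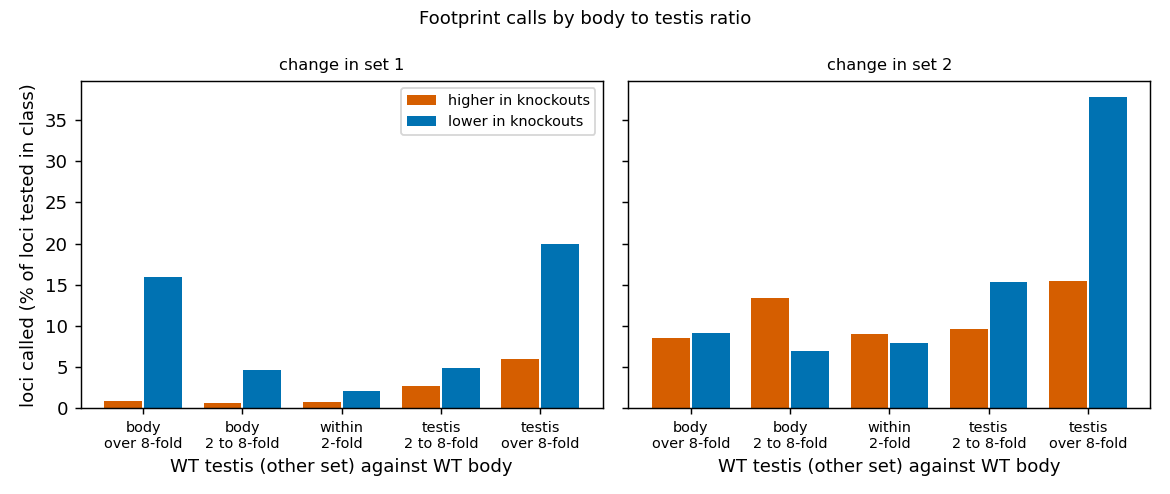
Percent of loci called higher (orange) or lower (blue) in knockout footprints of set 1 (left) and set 2 (right), for classes of loci by WT testis of the other set against WT body. Lower calls are most frequent in the testis-over-8-fold class, at 20.0% in set 1 and 37.9% in set 2.

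Losses were also more frequent among short loci. The deposited files give each transcript a length value whose unit was not stated. Over the quintiles of this value, from shortest to longest, 15.2%, 13.6%, 11.8%, 9.99% and 6.51% of loci were lower in the knockouts. The share that was higher changed little, from 8.28% in the lowest quintile to 7.62% in the highest. Each set showed the difference between the extreme quintiles on its own, with 10.6% against 4.09% lower in set 1 and 21.4% against 8.62% in set 2. Levels were similar in these quintiles, with medians of 4.81 and 4.63 log2 CPM, and among the 2 upper quintiles by level 22.8% of the shortest and 11.0% of the longest loci were lower. In set 1 RNA-seq the order was not the same, with 14.1% of the shortest and 18.2% of the longest loci lower. Falls in efficiency, tested in set 1, did not decline steadily with length either. From shortest to longest quintile they were found in 5.12%, 4.92%, 4.44%, 5.38% and 3.07% of loci. Within testis-biased loci, loci at or under the median length were lower in 42.9% and longer ones in 28.6% in set 2, but in 19.4% and 21.2% in set 1.

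**Figure D5:**
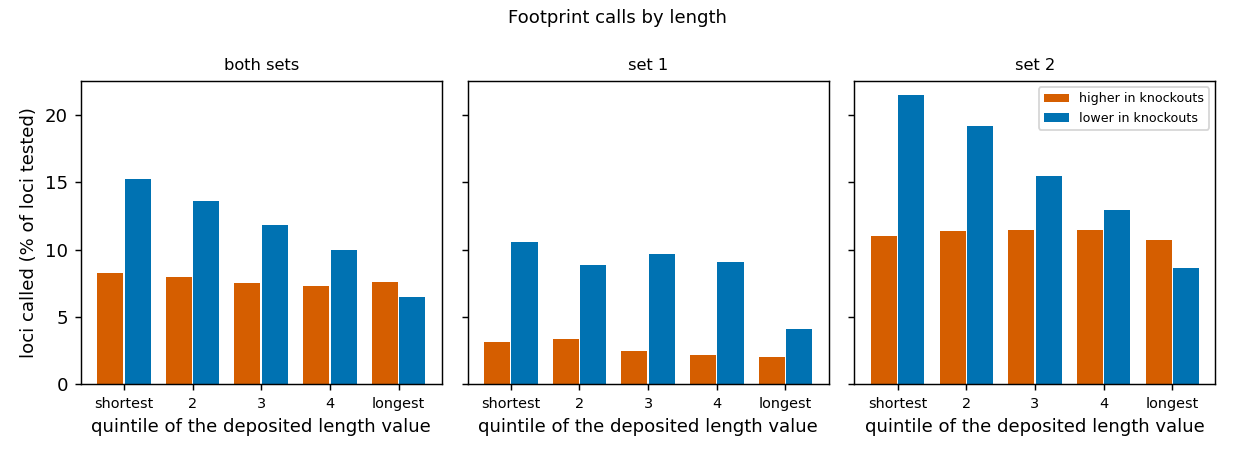
Percent of loci called higher (orange) or lower (blue) in knockout footprints by quintile of the deposited length value, for both sets together, set 1 and set 2. In the joint fit the lower calls decline from 15.2% to 6.51% from the shortest to the longest quintile, while the higher calls stay near 8%.

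Single values per library were compared by an exact two-sided permutation test within sets, with 36 arrangements and a smallest possible p of 0.0556. Libraries were thinned to a common depth for the count of loci that hold the upper 50% of footprints. That count was 576 and 516 in WT and 627 and 590 in the knockouts of set 1, and 667 and 606 against 678 and 679 in set 2. Knockouts lay above WT in each set, with a difference of 52.2 loci (exact permutation p = 0.0556, adjusted over 11 values 0.204). The mean length value weighted by footprints was 575 and 562 in WT and 588 and 602 in the knockouts of set 1, and 507 and 496 against 542 and 527 in set 2. It was higher in every knockout library than in the WT of its set, by 29.8 on average (exact permutation p = 0.0556, adjusted 0.204). The 10 highest loci took 8.65% and 11.0% of footprints in WT and 12.2% and 11.6% in the knockouts of set 1, and 6.83% and 8.25% against 7.91% and 7.53% in set 2. The genotypes overlapped in set 2, and this share was 1.13 percentage points higher in the knockouts (exact permutation p = 0.222, adjusted 0.349). Over the 11 values, exact permutation p-values ran from 0.0556 to 0.722, and none could have passed the threshold in this design.

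Footprint gains and losses stood differently beside transcript level. Set 1 RNA-seq called 4771 of 11905 loci (40.1%), 2554 higher (21.5%) and 2217 lower (18.6%). Of 900 higher footprint loci tested there, 662 (73.6%) had a higher transcript level and 5 a lower one. Of 1329 lower footprint loci, 693 (52.1%) had a lower transcript level, 221 a higher one, and 415 were not called. Over all loci tested in both, 21.3% were higher and 19.3% lower in RNA-seq. Of 1340 lower footprint loci with a test of translational efficiency, 401 fell in efficiency and 3 rose, in a comparison that called 571 of 12068 loci (4.73%). FBtr0083828 and FBtr0076638 were among the 401, whereas FBtr0073545, like Wdr59, rose in both footprints and transcript. Set 1 footprints enter the footprint change and the efficiency alike, so these counts are not independent of each other. With the RNA-seq thinned to the depth of the smallest footprint library, 234 of 980 lower footprint loci (23.9%) had a lower transcript level and 95 a higher one, against 9.48% lower and 11.9% higher over the 5241 loci tested in both. Of 666 higher footprint loci, 238 (35.7%) then had a higher transcript level.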

How the data were processed

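Counts per FlyBase transcript were deposited by the authors, as whole numbers in the third column of each file. STAR 2.7.0a, CASAVA 1.8 and the dm6 build stand in the submitters' processing notes, without their role. The counting tool, its strand setting and its treatment of multiply mapped reads were not given in the sources used here, so counts of overlapping or near-identical genes are uncertain. Per the labels' protocols, linkers were joined to the footprints, which were then amplified through in vitro transcription. No molecular identifiers are mentioned.

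Of 34703 transcripts, 30261 had a count. Transcripts within 50 lines whose profiles lay within a distance of 0.1 were joined and represented by the one with most counts, a rule chosen after the counts were seen. A gene may still enter more than once. Tests used edgeR 4.0.16, run in R 4.3.3 (quasi-likelihood F-test, TMM, filterByExpr at a minimum count of 10) with Benjamini-Hochberg adjustment over all loci tested. Alternatives were DESeq2 1.42.0, other filters and scaling, thinning, uncollapsed transcripts, a replicate block, no set term, and leaving out each library. The procedure was tested on simulated data, where unchanged loci among the calls exceeded the threshold in each set alone and, to a lesser degree, in the joint fit, and where changes of 2-fold were recovered less often than those of 4-fold. WT body footprints and set 1 RNA-seq were used beside the testis footprints, and set 2 RNA-seq was not used.

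Identifiers were named only where the RefSeq gene table holds them as synonyms. Loci given by identifier were the 2 that rose and the 2 that fell with the highest mean level among those called in the joint fit and both sets. They also had to change 2-fold or more, reach a mean of 5 log2 CPM and 10 counts in every library, and show no overlap within a set. The members, lists, classes and rules were chosen with earlier results of these data known. Gene lists and cell type markers could not be applied without names, and sequences and coordinates are not given.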

Additional observations from a re-analysis of the deposited data

How the results depend on the processing

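The count of loci called in both sets was 2257 of 11765 tested. It was 1227 of 6118 after thinning to the smallest library, 4695 of 25825 without collapsing transcripts and 1340 of 11765 without the set term. Leaving out 1 library gave 1407 of 11548 to 2377 of 12466. Thinning, filters and collapsing thus also changed the number of loci tested. In set 1, 863 calls became 425 by DESeq2, 1514 without the low-count filter, 2034 without collapsing and 339 to 1630 when 1 library was left out. In set 2, 3069 calls became 1120 after thinning, 5889 without collapsing and 1177 to 3618 when 1 library was left out. The set difference, 0 by edgeR, had 279 calls by DESeq2, 261 without the low-count filter, 3 after thinning and 0 to 463 when 1 library was left out. With RNA-seq thinned, 234 of 980 lower footprint loci had a lower transcript level, in place of 693 of 1329.

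Replicate numbers did not pair the libraries: deviations of same-numbered libraries had correlations of -0.10 in set 1 and -0.23 in set 2. A replicate block gave 1420 calls in both sets, 285 in set 1 and 9 for the set difference. A crossed pairing, added after the data were seen, gave 1933.

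Signs turned only for named loci that were not called: Wdr24 (-0.0739 without the set term, -0.35 to 0.29 leaving out 1 library), Dyrk3 (-0.12, and -0.0749 to 0.12), His4r (-0.0794 to 0.0836) and kis (-0.0186 to 0.35). Of the other values of named loci under the alternatives, 303 kept sign and call, 46 lost the call and 5 gained it. The share of lower loci in the shortest quintile was 1.89 to 3.10 times that in the longest under the alternatives run for it, which do not include uncollapsed transcripts. Set 1 knockout replicate 1, with 315992 counts, limits what set 1 can show. The causes were not tested.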
